A study of Mus musculus with 2 samples.

Results

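The genes described here are 10 direct transcriptional targets of p53, taken by symbol from the 31053 genes of the count files: Cdkn1a, Mdm2, Ccng1, Trp53inp1, Phlda3, Zmat3, Eda2r, Bax, Bbc3 and Pmaip1. Of these, 9 had UMIs (unique molecular identifiers, each standing for 1 captured transcript) in both libraries, and Pmaip1 had 0 in both. They were measured by single-cell RNA sequencing in AE9a leukemia cells, a mouse model of acute myeloid leukemia in which a shortened AML1-ETO fusion protein is introduced with a GFP-marked retrovirus. The study asked how depletion of 1 Usp18 allele changes such cells in established disease; USP18 is a negative regulator of type I interferon signalling and the protease that removes ISG15 from proteins.

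All leukemia cells carried the Usp18+/f genotype with a Cre recombinase that is switched on by tamoxifen. Sick recipients received oil (labelled Usp18+/f) or tamoxifen (labelled Usp18+/Δ), and 3 days after injections began GFP+ Lin− c-Kit+ cells were sorted from the spleen; the libraries are called by these labels, oil-labelled and tamoxifen-labelled. Each group pooled the cells of 3 mice before capture, so each group is 1 library without a measure of the spread between mice. Effects of tamoxifen, of Cre activity and of the deletion cannot be told apart in this design. No age is given in the labels. The study's methods give only a range of weeks, and both sexes, for all mice used.

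The libraries held 7281 and 7833 barcodes, of which 6546 and 7073 were kept, with 58068183 and 59503327 UMIs and a median of 8575.5 and 8023 UMIs per cell in the order oil, tamoxifen. Both libraries contained 15 barcodes in common, 0.206% and 0.191% of their own barcodes. The targeted gene went against its label: Usp18, itself an interferon-stimulated gene, was at 5.68 CPM (UMIs per 1000000 UMIs of the library) in the oil-labelled library and at 24.1 CPM in the tamoxifen-labelled library. Where the UMIs of a 3′ library lie relative to the deleted part of Usp18 is not given in the sources used here, so this level does not check the deletion. The sorted cells had the markers Kit, Myb, Runx1t1 and Cd34, at a summed 363 and 379 CPM, of which Cd34 made up 6.17 and 16.4 CPM. Summed markers of other cell types were 0.0517 and 22.5 CPM for 7 neutrophil genes (5 and 2 of them at 0), 3.81 and 7.31 CPM for 6 macrophage genes (0 at 0 in either library), 7.20 and 17.4 CPM for 4 NK cell genes (3 and 2 at 0, with Nkg7 giving nearly the whole sum) and under 1 CPM in each library for T cell, B cell and endothelial genes. Erythroid markers (6063 and 6309 CPM) and mast cell or basophil markers (761 and 782 CPM) were abundant in both, with single genes moving in both directions: Mcpt1 and Mcpt2 had log2 ratios (tamoxifen over oil) of −1.14 and −0.75, Cpa3 and Fcer1a of 0.92 and 0.60. Without the clusters led by S100a9 and by Rpgrip1, an alternative chosen after seeing the data, the p53 targets had log2 ratios between the libraries of 1.52 for Cdkn1a, 2.24 for Trp53inp1, 0.47 for Bbc3 and 0.22 for Bax.

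The protein p53 is held low by MDM2, which marks it for degradation, and accumulates when DNA damage, oncogene activity or ribosomal stress blocks that interaction. It then binds pairs of a short palindromic half-site near its target genes and switches on groups of genes that stop the cell cycle, limit p53 itself or start apoptosis. In blood-forming cells p21, the product of Cdkn1a, restrains cycling, while PUMA (Bbc3), NOXA (Pmaip1) and BAX drive the mitochondrial route to cell death.

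The promoter sequences are shown first because p53 acts on its targets through sites near them. RefSeq promoter windows of GRCm38.p6 (the build of mm10), running from 250 bases before to 50 bases after each annotated start, were found for 7 of the 10 genes; Trp53inp1, Zmat3 and Pmaip1 had no entry. They were searched for the p53 half-site consensus of 10 bases and for a full site of 20 bases, 2 adjacent half-sites with no gap, in which mismatches to the consensus were allowed outside the C and G core of each half-site. The consensus reads the same on both strands, so 1 search covered both. Cdkn1a, Ccng1 and Bbc3 had a full site with at most 3 mismatches, and these are printed 5′ to 3′ on the strand of the gene, the site in capitals with 5 flanking bases on each side:

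Cdkn1a, chr17:29090928-29090947, plus strand, 1 mismatch: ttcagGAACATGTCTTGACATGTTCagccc

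Ccng1, chr11:40755462-40755481, minus strand, 1 mismatch: aggccAGACCTGCCCGGGCAAGCCTtggca

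Bbc3, chr7:16309486-16309505, plus strand, 3 mismatches: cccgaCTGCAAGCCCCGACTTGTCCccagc

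The Cdkn1a site begins 51 bases before the first of 2 RefSeq starts, the second lying 2790 bases further on, and the Ccng1 site begins 195 bases before its start. Neither overlaps a gene of the GENCODE vM21 annotation. The Bbc3 site begins 97 bases before 1 of the 3 RefSeq starts and lies in an intron of the annotated gene. Among all 32851 windows of the same length, a full site was found in 0.067% with at most 1 mismatch and in 1.38% with at most 3. An exact half-site alone, found in 8.36% of all windows, was present for Bax, in an intron of the annotated gene Gm45808, and for Mdm2, outside any annotated gene, shown here with the half-site in capitals:

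Bax, chr7:45467090-45467099, minus strand: atcccAGGCAAGCTTtgaac

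Mdm2, chr10:117710935-117710944, minus strand: gatagGAACTTGCCTagcga

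No match was found in the windows of Phlda3 and Eda2r; these letters are then absent from the window only, and nothing follows for binding elsewhere. The Cdkn1a promoter carries the site in this surrounding sequence, the 247 bases before the annotated gene, chr17:29090729-29090975 on the plus strand, with the full site in capitals:

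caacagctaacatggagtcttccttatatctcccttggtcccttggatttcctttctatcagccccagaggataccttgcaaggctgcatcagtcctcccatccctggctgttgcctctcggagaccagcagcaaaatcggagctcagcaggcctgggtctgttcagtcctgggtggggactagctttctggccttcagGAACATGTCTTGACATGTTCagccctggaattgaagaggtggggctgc

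The tamoxifen-labelled library was higher for all 9 detected genes, by 1.16-fold (Bax) to 6.74-fold (Eda2r). Cdkn1a, Ccng1, Trp53inp1 and Zmat3 were past 1.5-fold, while Mdm2, Phlda3, Bax and Bbc3 were higher by less. In each library 7 of the genes had at least 5 CPM, and their median log2 ratio (tamoxifen-labelled over oil-labelled library) was 0.49, compared with 0.01 over all 8778 genes of that level. Of those 7, 3 were higher by at least 1.5-fold and 7 had a counting interval of the ratio wholly above 0, as had 0.877% and 22.3% of the 8778 genes. Trp53inp1 reached a mean of 5 CPM over both libraries only through the library in which it was high, and is left out of these counts. Among all 8879 genes with such a mean, the basis of the gene lists below, 1.17% were higher by at least 1.5-fold, 1.35% differed by that much in either direction and 22.6% had an interval above 0. With 1 library per group no test was possible, and every interval below is a 95% interval that covers counting error only.

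**Figure D1:**
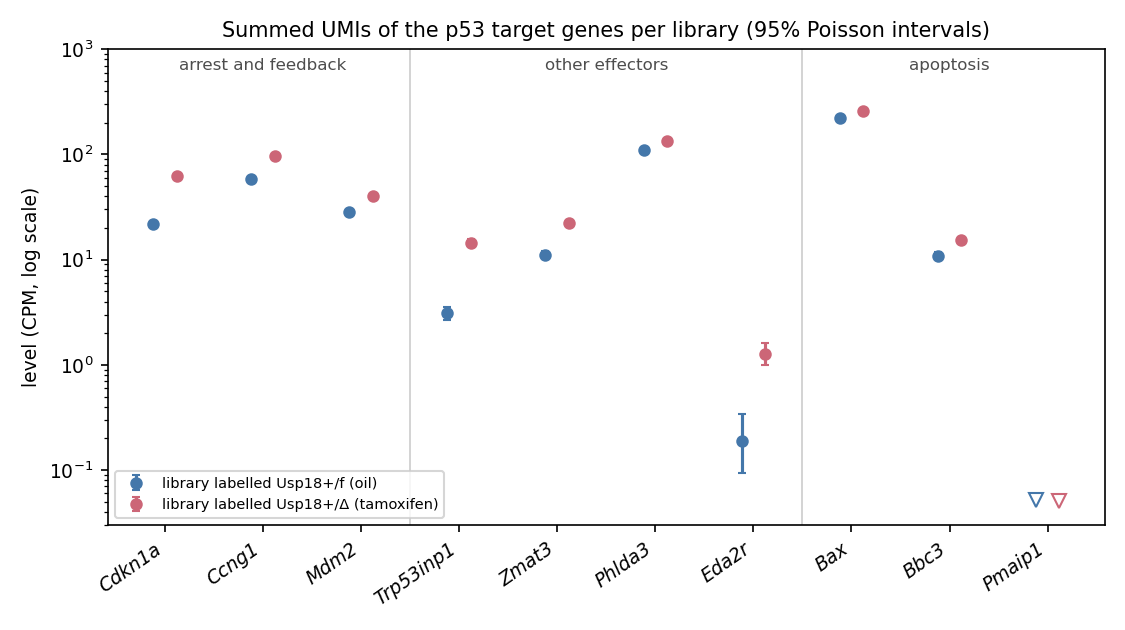
Level of each p53 target gene in CPM on a log scale (y axis) in the oil-labelled and tamoxifen-labelled libraries, grouped by role, with exact 95% Poisson intervals; open triangles give the limit of 0.0517 and 0.0504 CPM (3 UMIs) that a count of 0 allows for Pmaip1. All 9 detected genes are higher in the tamoxifen-labelled library, and Bax is the most abundant in both.

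Cdkn1a, which encodes the cyclin-dependent kinase inhibitor p21 (ENSMUSG00000023067, chr17:29090976-29100727), had 1272 UMIs in the oil-labelled library and 3742 in the tamoxifen-labelled library. These are 21.9 CPM (20.7 to 23.1) and 62.9 CPM (60.9 to 64.9), a log2 ratio of 1.52 (1.43 to 1.61). The intervals of both levels are far apart, and the ratio was the 5th highest of the 8778 genes with at least 5 CPM in each library. A UMI of Cdkn1a was found in 13.8% of cells (905 of 6546) and in 25.6% (1813 of 7073). Cells with the gene also held more of it, 1.41 UMIs per positive cell in the first library and 2.06 in the second, with up to 12 and 22 UMIs in 1 cell.

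Ccng1 encodes cyclin G1, a partner of a phosphatase that acts on MDM2 (ENSMUSG00000020326, chr11:40748552-40755311). It was at 58.2 CPM (3378 UMIs) and 96.4 CPM (5737 UMIs), a log2 ratio of 0.73 (0.67 to 0.79). Mdm2, the E3 ligase of the p53 feedback loop (ENSMUSG00000020184, chr10:117688875-117710758), was at 28.5 CPM (1656 UMIs) and 40.1 CPM (2385 UMIs), a log2 ratio of 0.49 (0.40 to 0.58). Both feedback genes were thus higher in the tamoxifen-labelled library by less than Cdkn1a, with intervals that do not reach that of Cdkn1a. The median of the 3 arrest and feedback genes was 0.73.

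Among the other effectors, Trp53inp1, a p53-induced nuclear protein that binds p53 and takes part in autophagy (ENSMUSG00000028211, chr4:11156431-11174379), had a higher ratio than Cdkn1a. Its level was 3.08 CPM (179 UMIs) in the oil-labelled library and 14.6 CPM (866 UMIs) in the tamoxifen-labelled library, a log2 ratio of 2.24 (2.01 to 2.48). Zmat3, a zinc finger RNA-binding protein (ENSMUSG00000027663, chr3:32334792-32366014), was at 11.1 CPM (644 UMIs) and 22.5 CPM (1341 UMIs), a log2 ratio of 1.02 (0.89 to 1.16). Phlda3, a pleckstrin homology domain protein that restrains AKT (ENSMUSG00000041801, chr1:135766119-135769136), was the second most abundant of the 10 genes and differed less: 110 CPM (6385 UMIs) and 135 CPM (8033 UMIs), a log2 ratio of 0.30 (0.25 to 0.34). The order of the levels of these 3 genes is the reverse of the order of their ratios. Eda2r, the receptor for ectodysplasin A2 (ENSMUSG00000034457, chrX:97333840-97377216), was sparse, with 11 and 76 UMIs in 9 and 67 cells. Its levels of 0.189 and 1.28 CPM gave the highest log2 ratio of the 10 genes, 2.75, with the widest interval (1.83 to 3.82), and it lies below the 5 CPM used for the counts above.

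Of the apoptosis genes, Bax had the smallest ratio of the 9 detected genes, and Bbc3 lay with Mdm2 and above Phlda3. Bax, the pore-forming effector of mitochondrial cell death (ENSMUSG00000003873, chr7:45461697-45466898), was at 222 CPM (12895 UMIs) in the oil-labelled library and 258 CPM (15366 UMIs) in the tamoxifen-labelled library, a log2 ratio of 0.22 (0.18 to 0.25). Bbc3, which encodes the BH3-only protein PUMA (ENSMUSG00000002083, chr7:16308393-16318205), was at 10.9 CPM (633 UMIs) and 15.3 CPM (911 UMIs), a log2 ratio of 0.49 (0.34 to 0.64). Pmaip1, which encodes the BH3-only protein NOXA, had 0 UMIs in both libraries, a count that, read as at most 3 UMIs, allows up to 0.0517 and 0.0504 CPM. The median of Bax and Bbc3 was 0.35, below the 0.73 of the arrest and feedback genes, but the roles overlap, since Bbc3 and Mdm2 had the same ratio to 2 decimals. The order of the medians also turned, to 0.73 for apoptosis against 0.52 for arrest and feedback, in the 1013 and 732 cells with at most 5% mitochondrial UMIs, where Bbc3 had a log2 ratio of 1.30. The cluster led by Rpgrip1, at a median of 0.89% mitochondrial UMIs, held 308 oil-labelled and 44 tamoxifen-labelled cells. The make-up of the cells under this filter thus differed between the libraries, and its part in the turn was not tested.

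**Figure D2:**
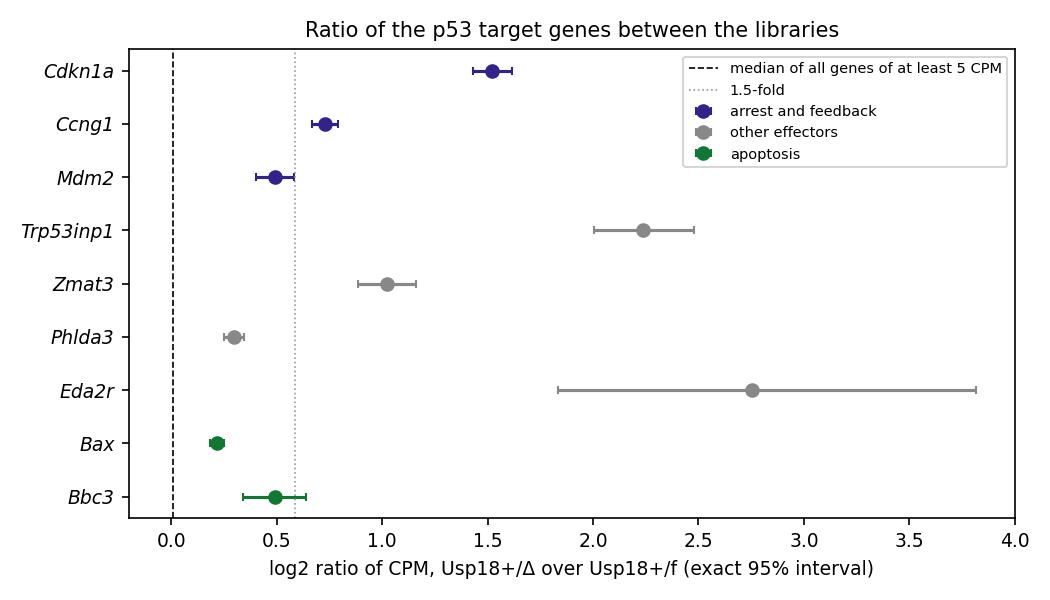
Log2 ratio of CPM, tamoxifen-labelled over oil-labelled library (x axis), for the 9 detected p53 target genes, colored by role, with exact 95% intervals of counting error; the dashed line is the median of all genes of at least 5 CPM and the dotted line 1.5-fold. Every interval is above 0, from 0.22 for Bax to 2.75 for Eda2r, and Bbc3 and Mdm2 sit at the same ratio.

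Measured as the difference in level rather than the ratio, the genes fall in another order. Cdkn1a gained 41.0 CPM, Ccng1 38.2, Bax 36.2 and Phlda3 25.0 in the tamoxifen-labelled library over the other. Mdm2 (11.6 CPM), Trp53inp1 (11.5) and Zmat3 (11.4) differed by less, and Bbc3 by 4.41 CPM. Bax, last by ratio among the detected genes, was thus the third by added transcripts. A 3′ library gives 1 UMI per captured transcript whatever its length, so these levels are not divided by length.

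Genes around p53 that were no members of the 10 were counted on lists of the pathway. Trp53, the gene of p53 itself, was at 271 and 270 CPM, a log2 ratio of −0.00084 (−0.033 to 0.031). Of 16 regulators of p53, 14 had at least 5 CPM and 0 were past 1.5-fold, with a median of 0.05; Mdm4, an inhibitor of p53 related to MDM2, was at 115 and 146 CPM (log2 ratio 0.35). Of 37 further p53 targets, 23 had at least 5 CPM. Among these 19 were higher, against 52.8% of all 8879 genes, 15 had an interval above 0 and 1, Ckap2 (−0.12), had an interval below 0. The median was 0.28, and 1 of the 23, Sesn2, a stress-responsive inhibitor of mTORC1 signalling, was past 1.5-fold at 6.77 and 14.8 CPM (log2 ratio 1.13). The other 14 lay below 5 CPM: 9 were higher and 5 lower, 3 of the latter with equal UMIs, while 6 had an interval above 0 and 0 an interval below. Of all 8745 genes with UMIs under that level, 56.0% were higher, 8.24% had an interval above 0 and 2.36% below.

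Other genes of the same functions were counted in the same way. Of 17 further BCL2 family genes, 11 were measured at that level, 0 were past 1.5-fold, and the median was 0.03. The most abundant were Mcl1 at 0.10, Bcl2l13 at 0.03, Bad at 0.02 and Bak1 at 0.14. Of 7 other CDK inhibitors, 4 were measured and 3 had an interval below 0, as had 19.5% of all genes, with Cdkn1b (p27) at 0.01, Cdkn2c (p18) at −0.12, Cdkn2d (p19) at −0.16 and Cdkn3, a CDK-associated phosphatase, at −0.39. Of 20 cell cycle genes, listed as known to fall after p21 induction, 18 were lower in the tamoxifen-labelled library, against 47.2% of all genes. Of the 20, 14 had an interval below 0 and 1 above, with a median of −0.17 and Mki67, the proliferation antigen Ki-67, at −0.13. By the phase scores given below, G2M cells made up 47.2% of scored cells in the oil-labelled library and 41.8% in the tamoxifen-labelled library. The part of this shift in the list was not tested. Of 40 interferon-stimulated genes, 30 were measured and 25 were past 1.5-fold upward in the tamoxifen-labelled library, with a median of 1.13. Of the 24 with at least 5 CPM in each library, 19 were past it. The part of interferon signalling in the p53 target levels was not tested.

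Cells of unequal depth were compared after thinning each to 3000 UMIs, a step that left 6090 and 6723 cells and set 456 and 350 shallower cells aside. A UMI of Cdkn1a was then found in 5.45% of cells (4.90 to 6.05) in the oil-labelled library and in 13.3% (12.5 to 14.1) in the tamoxifen-labelled library. Cells with 3 or more Cdkn1a UMIs numbered 9 and 93. For Ccng1 the shares were 15.6% and 23.7%, for Mdm2 8.42% and 11.3%, for Trp53inp1 1.12% and 4.66%, and for Zmat3 2.96% and 6.49%. Phlda3 was found in 27.4% and 31.2% of cells, Bax in 46.1% and 51.8%, Bbc3 in 3.65% and 5.01%, and Eda2r in 0.0821% and 0.446%. Shares without thinning were higher but in the same direction, from 0.137% and 0.947% for Eda2r to 76.7% and 79.0% for Bax. Free RNA in droplets can give such UMIs, and no cell type that should lack these genes was present in the sort to measure it, so its part was not tested.

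Within a library, the other p53 targets were found more often in cells with a Cdkn1a UMI than in cells without. In the tamoxifen-labelled library (895 positive and 5828 negative cells), Trp53inp1 was found in 16.3% of Cdkn1a-positive cells (14.0 to 18.9) and in 2.87% of the negative cells (2.45 to 3.33), a ratio of 5.69 and the highest of the 9423 genes found in at least 1% of cells. Its size depended on the settings, from 3.55 to 9.25 over 12 alternatives and 4.41 with only another random draw of the thinning. Zmat3 followed with 14.5% and 5.25% (ratio 2.77, the 10th highest), then Bbc3 with 9.39% and 4.34% (2.16), Mdm2 with 20.2% and 9.95% (2.03), Ccng1 with 41.5% and 20.97% (1.98) and Phlda3 with 50.8% and 28.1% (1.81). Bax, present in most cells at full depth, differed least, at 63.1% and 50.1% (1.26). Bbc3 thus stood beside Mdm2 and Ccng1 over all cells, but within S-phase cells its ratio was 1.01, on 8 cells with both genes, below 1.18 for Bax, 1.68 for Mdm2 and 1.497 for Ccng1. The ratio of Zmat3 was 1.46 in those cells, and that of Mdm2 1.16 in cells with at most 5% mitochondrial UMIs. Eda2r was found in 18 of the 895 positive cells and in 12 of the 5828 negative cells.

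The oil-labelled library had fewer Cdkn1a-positive cells (332, against 5758 negative) and smaller ratios for most genes. Bbc3 had the highest, with 8.73% of positive cells (5.93 to 12.3) and 3.35% of negative cells (2.90 to 3.85), a ratio of 2.61 and the 5th highest of 9359 genes. Zmat3 (6.02% and 2.78%, ratio 2.17), Mdm2 (12.3% and 8.20%, 1.51), Ccng1 (22.3% and 15.2%, 1.47), Phlda3 (39.2% and 26.7%, 1.47) and Bax (55.4% and 45.6%, 1.22) were also found more often in positive cells. Trp53inp1, at 2.11% and 1.06%, rested on 7 cells with both genes. Its ratio of 1.99 and that of Mdm2 were not stable in this library, Mdm2 turning to 0.94 at 5000 UMIs per cell. That of Bbc3 was 1.53 at 5000 UMIs, where Zmat3 had 2.39. It was 2.26 with another random draw of the thinning, where Trp53inp1 had 2.65, so the place of Bbc3 as the highest was not stable.

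**Figure D3:**
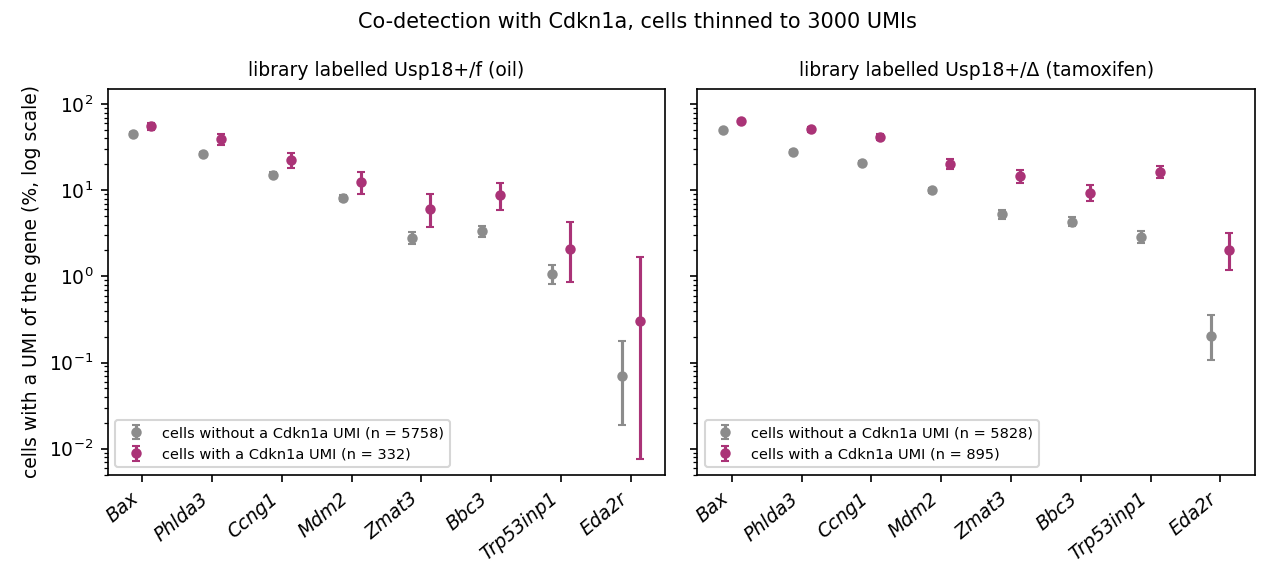
Percent of cells with a UMI of each p53 target (y axis, log scale) among cells with and without a Cdkn1a UMI, all thinned to 3000 UMIs, in each library, with exact 95% intervals. On the log scale the gap between positive and negative cells in the tamoxifen-labelled library is wide for Trp53inp1 (16.3% and 2.87%) and for the sparse Eda2r (18 and 12 cells), and narrow for Bax in both.

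Over the 7 genes found in at least 1% of cells, the median ratio was 1.51 in the oil-labelled library and 2.03 in the tamoxifen-labelled library, whereas over all genes it was 1.003 and 0.98. A ratio of at least 1.5 was reached by 4 and 6 of the 7 genes, and by 3.62% and 2.82% of all genes. Among pairs of the p53 targets for which at least 10 cells were expected to hold both by independence, 21 of 22 pairs in the first library and 29 of 29 in the second occurred together more often than that. Over all gene pairs with the same minimum, from genes found in at least 1% of cells, 50.7% and 50.4% did so. The median pair of p53 targets stood at 1.14 and 1.49 times the independent number, and the highest was Cdkn1a with Bbc3 (2.40) in the first library and Cdkn1a with Trp53inp1 (3.504) in the second. Trp53inp1 with Zmat3, a pair without Cdkn1a, stood at 2.76 in the second. The sets of pairs differ, since some pairs reached the minimum only in the tamoxifen-labelled library, so the medians cover unlike sets. Cdkn1a with Trp53inp1 and Trp53inp1 with Zmat3 are such pairs. In the oil-labelled library they stood at 1.89 and 1.49, on 7 and 3 cells with both genes. Cells share the library and its free RNA, so these ratios are descriptions.

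Cells with more Cdkn1a also held more of the other targets. In the tamoxifen-labelled library the mean number of other p53 targets found per cell was 1.22 in 5828 cells with 0 Cdkn1a UMIs, 1.95 in 627 cells with 1, 2.64 in 175 cells with 2 and 2.84 in 93 cells with 3 or more. The share with at least 2 others was 33.6%, 59.3%, 81.1% and 86.0%, and Trp53inp1 stood at 31.1, 161, 349 and 409 UMIs per 1000 cells. For the oil-labelled library the corresponding numbers were 1.03, 1.45, 1.48 and 1.78 in 5758, 290, 33 and 9 cells, with at least 2 others in 26.8%, 42.4%, 48.5% and 55.6%. The step from 0 to 1 UMI was thus seen in both libraries, while the intervals of the classes with 2 and with 3 or more UMIs overlap in both libraries, as do those with 1 and 2 UMIs in the oil-labelled library. Before thinning, the median depth of the 4 classes in the tamoxifen-labelled library was 8341, 7836, 7636 and 7051 UMIs, and their mean interferon-stimulated UMIs after thinning were 7.83, 9.07, 10.99 and 10.7; the part of depth and interferon response in the pattern was not tested.

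**Figure D4:**
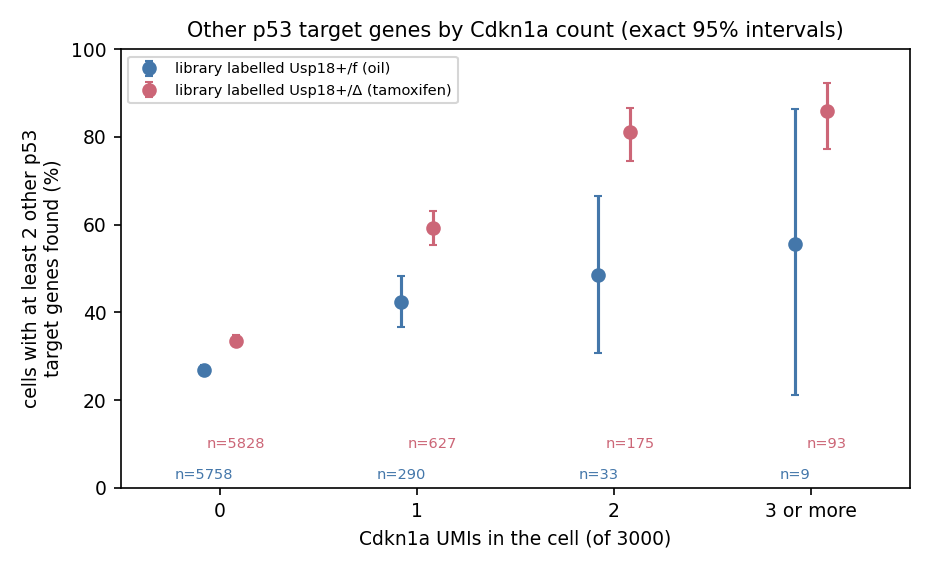
Percent of cells with at least 2 other p53 target genes found (y axis) by the number of Cdkn1a UMIs in the cell (x axis, cells thinned to 3000 UMIs), with exact 95% intervals and cell numbers. In the tamoxifen-labelled library the share goes from 33.6% at 0 UMIs to 86.0% at 3 or more, and in the oil-labelled library from 26.8% to 55.6% with 9 cells in the last class.

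By the lower of its ratios in both libraries, the genes most like Cdkn1a among 8353 genes found in at least 2% of cells of each were Ddit4 (2.52 and 2.66 in the order oil, tamoxifen), an mTORC1 inhibitor, Slc19a2 (2.37 and 3.32), a thiamine transporter, Zmat3 (2.17 and 2.77), Bbc3 (2.61 and 2.16) and Ddias (2.32 and 2.12). Mdm2, Ccng1 and Phlda3 were at places 19, 21 and 22, and Bax at 172. In the oil-labelled library such ratios rest on few cells, 20 with both genes for Zmat3 and 29 for Bbc3. Ddit4 was found there in 5.12% of the 332 Cdkn1a-positive cells. The order was not checked with another random draw of the thinning. Trp53inp1 was in too few cells of the oil-labelled library to be placed.

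The p53 targets differed in how they followed the cell cycle. Cells were scored as G1, S or G2M from the thinned counts, which gave 1432, 1782 and 2876 cells in the oil-labelled library and 2036, 1878 and 2809 in the tamoxifen-labelled library. Cdkn1a was at 21.4, 23.3 and 21.5 CPM in G1, S and G2M of the first library and at 102, 47.0 and 54.6 CPM in the second. Its level over all cells of a phase was thus flat in 1 library and highest in G1 in the other, where the G1 cells outside 2 clusters described below were at 48.2 CPM, between S and G2M. Those 2 clusters are the ones with the highest Cdkn1a ratios, so this lower level follows in part from the choice of cells. The log2 ratio between libraries was 2.25 (2.04 to 2.48) in G1, 1.02 (0.84 to 1.196) in S and 1.34 (1.21 to 1.47) in G2M. Within each phase the median over all genes of at least 5 CPM was between −0.01 and 0.01.

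Trp53inp1 was higher in cells scored as G1 than in those scored as G2M in both libraries. Its level was 11.9 CPM in G1 and 1.30 CPM in G2M of the oil-labelled library, and 45.5 and 6.11 CPM in the tamoxifen-labelled library. The log2 ratio of G1 over G2M was 3.20, the 9th highest of 8900 genes, in the first and 2.90, the 18th highest of 8964, in the second. Between libraries it was higher in the tamoxifen-labelled library by a log2 ratio of 1.93 in G1, 1.93 in S and 2.23 in G2M, with intervals of 1.64 to 2.23, 1.21 to 2.72 and 1.73 to 2.76 that overlap. The G1 cells differed in make-up: a cluster led by Tpsg1, Serpinb1a and Csf2rb2 held 45.3% of them in the oil-labelled and 56.2% in the tamoxifen-labelled library, and one led by Trp53inp1 and Mxd4 held 26.5% and 21.1%. Within the G1 cells of the first cluster the log2 ratio of Cdkn1a was 2.08 (1.78 to 2.40), within those of the second 4.05 (3.43 to 4.74), and in the G1 cells of all other clusters 0.93 (0.54 to 1.33). In the tamoxifen-labelled library Cdkn1a was at 115, 141 and 48.2 CPM in these 3 sets of G1 cells. Trp53inp1 was at 19.8, 12.7 and 2.19 CPM in them in the oil-labelled and at 57.9, 64.2 and 7.90 CPM in the tamoxifen-labelled library. Outside both clusters its G1 level, on 7 and 28 UMIs, was nearer that of G2M (1.30 and 6.11 CPM) than that of all G1 cells. As Trp53inp1 itself leads the second cluster, a low level outside it follows in part from the choice of cells. The second cluster was not stable when the cells were clustered again, as given with the clusters.

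Bbc3 was also higher in G1 than in G2M in both libraries, by a log2 ratio of 0.88 (17.4 and 9.45 CPM) and 0.96 (24.4 and 12.6 CPM). Zmat3 was at 13.5 and 10.2 CPM in G1 and G2M of the oil-labelled library and at 34.9 and 19.002 CPM in the tamoxifen-labelled library, log2 ratios of 0.41 and 0.88. For Ccng1 the same ratios were 0.12 and 0.47, for Mdm2 0.00 and 0.21, for Phlda3 0.23 and 0.29, and for Bax −0.09 and 0.10. All 8 genes were higher in the tamoxifen-labelled library in each of the 3 phases, Bax by 0.39 in G1, 0.13 in S and 0.21 in G2M.

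**Figure D5:**
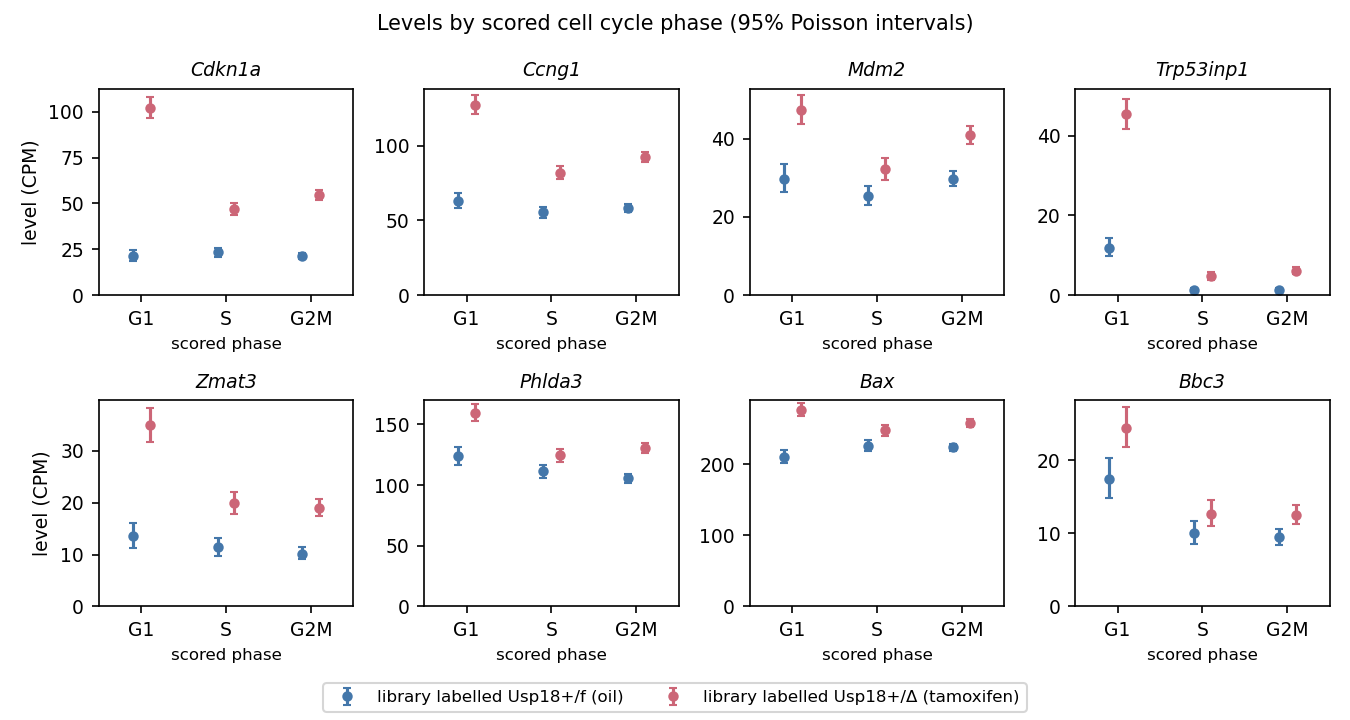
Level in CPM (y axis, from 0) of 8 p53 target genes by scored cell cycle phase (x axis) in the oil-labelled and tamoxifen-labelled libraries, with exact 95% Poisson intervals. Cdkn1a is flat over the phases of the oil-labelled library (21.4, 23.3 and 21.5 CPM) and highest in G1 of the other (102 CPM), and Trp53inp1 is highest in G1 of both; outside the clusters led by Tpsg1 and by Trp53inp1, G1 cells are at 25.4 and 48.2 CPM for Cdkn1a and at 2.19 and 7.90 CPM for Trp53inp1.

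Cells past a cut-off of interferon-stimulated transcripts did not hold all of the difference. With more than 13 such UMIs per thinned cell, the 99th percentile of the oil-labelled library, 48 and 740 cells were interferon-high. In these, Cdkn1a was at 25.5 CPM (9 UMIs) and 119 CPM (617 UMIs). Among the other 6042 and 5983 cells Cdkn1a was at 22.0 and 57.3 CPM, a log2 ratio of 1.38 (1.29 to 1.48), and Trp53inp1 at 2.98 and 11.6 CPM (1.95). In those same cells the ratio was 0.96 for Zmat3, 0.71 for Ccng1, 0.45 for Mdm2, 0.36 for Bbc3, 0.27 for Phlda3 and 0.22 for Bax. The cut-off was not shown to level the interferon-stimulated transcripts of the libraries. Over all thinned cells without a Cdkn1a UMI, their median was 5 and 7 UMIs (oil, tamoxifen). The part of interferon response in the remaining ratios was not tested.

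Clusters made without the 10 genes, the interferon-stimulated genes and the sex genes gave 10 groups of cells. Cdkn1a was higher in the tamoxifen-labelled library in all 7 clusters with at least 10 UMIs in both libraries, by log2 ratios of 0.97 to 3.67, and Ccng1, Mdm2, Phlda3 and Zmat3 in 7 of 7. At the same minimum, Trp53inp1 was higher in 6 of 6, Bax in 10 of 10 (6 with an interval above 0) and Bbc3 in 6 of 7 (−0.02 to 0.71, 3 with an interval above 0). The 2 clusters with the highest Cdkn1a ratios were the one led by Trp53inp1, Mxd4, Dglucy and Btg2 (457 and 506 cells; 10.3 and 132 CPM) and the one led by Tpsg1, Serpinb1a and Csf2rb2 (742 and 1442 cells; 27.7 and 113 CPM). The first was not a stable group of cells: under 5 other clusterings the Cdkn1a log2 ratio of the cluster closest to it went from 1.41 to 3.36. The leading genes of the second also include the mast cell or basophil markers Mcpt2, Cpa3, Mcpt8 and Mcpt1. It held 11.3% of the cells of the oil-labelled library and 20.4% of those of the tamoxifen-labelled library. Ratios over all cells include this shift in make-up, and its part was not tested.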

How the data were processed

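Per the labels and the study's methods, 10x Genomics 3′ V3 libraries were mapped to mm10 and counted with Cell Ranger 3.0.2. The authors deposited raw UMI counts per gene and barcode for the barcodes called as cells. A minimum of 500 genes and a maximum of 10% mitochondrial UMIs decided which barcodes were kept. Scrublet in scanpy 1.11.5 marked 0.0436% and 0.0270% of cells, too few for a working call, so cells above the 95th percentile of its scores were removed (340 and 333).

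UMIs were summed per library and scaled to CPM. With 1 library per group no test was run: levels carry exact Poisson, shares Clopper-Pearson and ratios exact conditional 95% intervals, all for counting error only. A count of 0 was read as at most 3 UMIs. Cells thinned to 3000 UMIs gave co-detection, phases and classes. Clusters used 2000 variable genes, 30 principal components, 20 neighbours and Leiden resolution 0.8. Functions were tested on simulated data. Coordinates are those of GENCODE vM21, matched by identifier for 30934 of 31053 genes, and sequences those of RefSeq GRCm38.p6.

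The 10 genes and all lists were chosen with earlier results of these data known. Named beside the 10 were Trp53, Usp18 and the 5 genes most often found with Cdkn1a. From the lists, genes past 1.5-fold and up to 4 of the most abundant others per list could be named, and not all of them are. Bok and the targets below 5 CPM named under other observations lie outside this rule and were taken after their values were seen. Alternatives varied cell filter, doublets, averaging, scaling, level and fold minimum, thinning and clustering.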

Additional observations from a re-analysis of the deposited data

Results flagged for a closer look

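The p53 targets differed in the same direction in barcodes left out of the levels above, which enter only the alternatives that keep all barcodes or doublets. Among the 290 and 404 barcodes with over 10% mitochondrial UMIs (oil, tamoxifen), the log2 ratio was 1.18 for Cdkn1a (31 and 92 UMIs), 1.09 for Ccng1, 2.15 for Trp53inp1 (5 and 29 UMIs) and 0.38 for Bax, each with a counting interval above 0. Among the 340 and 333 cells removed for high doublet scores it was 1.40 for Cdkn1a (102 and 256 UMIs), 0.60 for Ccng1, 2.34 for Trp53inp1, 0.84 for Zmat3 and 0.27 for Bax. Mdm2, Phlda3 and Bbc3 had intervals that include 0 in both sets, as had Zmat3 (0.84) in the first. The oil-labelled library served as the control level, and no test was run.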

How the results depend on the processing

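Each of the 9 detected genes was higher in the tamoxifen-labelled library under every alternative that gave a value; Eda2r gave none at 5% mitochondrial UMIs, where it had 0 UMIs in 1 library. At most 5% mitochondrial UMIs (869 of 8920 genes past 1.5-fold) gave log2 ratios of 1.76 (Cdkn1a), 0.33 (Mdm2), 0.52 (Ccng1), 3.55 (Trp53inp1), 0.20 (Phlda3), 0.81 (Zmat3), 0.16 (Bax) and 1.30 (Bbc3), medians of 0.52 (arrest and feedback) and 0.73 (apoptosis), 2.56 for Cdkn1a in G1 and a median co-detection ratio of 1.59 in the tamoxifen-labelled library. Mean per-cell CPM gave 1.65 for Cdkn1a, and leaving out interferon-high cells 1.39 for Cdkn1a and 1.98 for Trp53inp1. With at least 20 CPM, 2 of 5 genes were past 1.5-fold, as were 0.852% of all 5984. With Zmat3 added, the arrest median was 0.88. In the tamoxifen-labelled library the median co-detection ratio was 1.68 without thinning, 2.42 for at least 2 Cdkn1a UMIs and 1.497 within S phase. In the oil-labelled library, co-detection turned for Mdm2 (0.94 at 5000 UMIs, 0.99 at 5% mitochondrial UMIs) and for Trp53inp1 (0 cells with both, ratio 0, at 5% mitochondrial UMIs and within S phase). For Cdkn1a in the Trp53inp1-led cluster, another seed gave 1.41, resolution 0.4 gave 2.41, 15 components 1.47 and leaving out genes that differ 1.5-fold 2.98. The cause of these shifts was not tested. The alternatives on interferon-high cells, phases and clusters were chosen after seeing the data. No paired analysis was possible because oil and tamoxifen have 1 library each. Eda2r (11 UMIs) and Trp53inp1 (179 UMIs) rest on few counts in the oil-labelled library.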

Other observations

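Of the 37 further p53 targets, 14 lay below 5 CPM, and the genes named here were chosen after their values were seen. Trp53cor1, the long noncoding RNA lincRNA-p21 transcribed from the neighbourhood of Cdkn1a, had 33 UMIs in the oil-labelled library and 137 in the tamoxifen-labelled library (log2 ratio 2.02, 1.46 to 2.61). Ano3 had 43 and 247 UMIs (2.49, 2.02 to 2.99), and Ak1, an adenylate kinase, 49 and 96 (0.93, 0.42 to 1.46). Fas, the death receptor, had 1 and 17 UMIs, a log2 ratio with a counting interval of 1.38 to 9.44. Plk2, a kinase of the polo family, had 0 and 9 UMIs. Pltp (45 and 34 UMIs, −0.44) and Plk3 (88 and 84 UMIs, −0.10) were lower, with intervals that include 0. Perp, Tigar and Dram1 had at most 14 UMIs in each library and intervals that include 0. Bok, a BCL2 family gene also chosen for its value, was lower in the tamoxifen-labelled library, at 20.6 and 14.4 CPM (log2 ratio −0.52, −0.65 to −0.40).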
